A study of Rattus norvegicus with 28 samples.

Results

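Diazepam, a benzodiazepine, was given to C6 rat glioma cells at 25 µM for 2 h, and the RNA of 4 such cultures was compared with that of 6 untreated cultures. These 10 arrays belong to a set of 28 Illumina rat bead arrays, whose other 18 arrays are 6 each of cells given desipramine, fluoxetine or haloperidol at the same dose and time. The diazepam arrays carry the replicate numbers 1, 4, 5 and 6, since 2 further diazepam samples failed the submitters' quality control; the untreated arrays are numbered 1 to 6. All cells, untreated ones included, had been without serum for 24 h when treatment began, the labels name no vehicle, and no genetic change was made. C6 is a single transformed line grown from a chemically induced rat glial tumor, so it is a model of astrocytes and not astrocytes taken from an animal. The labels call the replicates biological but do not say whether they came from separate thawed cultures or days, so p-values measure the spread between these samples.

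The astrocyte label was checked against markers. Of 10 astrocyte markers with a probe, 7 were detected on all 10 arrays, among them Gfap, the intermediate filament of astrocytes, S100b and the gap junction gene Gja1. The water channel Aqp4 and the radial glial gene Fabp7 were detected on 0 of the 10 arrays. The pattern was not confined to astrocyte genes: 5 of 10 oligodendrocyte markers with a probe (Cnp, Olig1, Sox10, Pdgfra and Cspg4) and 5 of 11 neuron markers (Map2, Syt1, Nefl, Nefm and Gad1) were also detected on all 10 arrays.

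Diazepam is best known as a positive allosteric modulator of GABA-A receptors, the chloride channels opened by the transmitter GABA, where it binds between an alpha and a gamma subunit. It also binds Tspo, a protein of the outer mitochondrial membrane that is abundant in glia, whose endogenous ligand is the peptide encoded by Dbi, the diazepam binding inhibitor. Several genes described here belong to the cyclic AMP (cAMP) pathway. In that pathway adenylyl cyclases make cAMP, protein kinase A is activated by it and phosphorylates the transcription factor CREB, CREB binds the cAMP response element in promoters, and phosphodiesterases break cAMP down.

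The promoters of 3 members of the cAMP and CREB target list that passed the test are shown, because they hold the core of that element (TGACG, or CGTCA where it lies on the other strand; in capitals). They are the 250 bases before the RefSeq start on build GRCr8, each read 5′ to 3′ on the gene's own strand, at chr20:9958647-9958896 for Sik1, chr13:58352667-58352916 for Rgs2 and chr10:45267683-45267932 for Rasd1, all on the minus strand.
Sik1: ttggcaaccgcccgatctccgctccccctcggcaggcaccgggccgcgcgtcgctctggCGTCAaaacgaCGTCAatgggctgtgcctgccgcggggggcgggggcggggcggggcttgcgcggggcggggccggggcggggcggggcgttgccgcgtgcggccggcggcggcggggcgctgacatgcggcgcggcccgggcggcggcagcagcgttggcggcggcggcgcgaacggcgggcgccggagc
Rgs2: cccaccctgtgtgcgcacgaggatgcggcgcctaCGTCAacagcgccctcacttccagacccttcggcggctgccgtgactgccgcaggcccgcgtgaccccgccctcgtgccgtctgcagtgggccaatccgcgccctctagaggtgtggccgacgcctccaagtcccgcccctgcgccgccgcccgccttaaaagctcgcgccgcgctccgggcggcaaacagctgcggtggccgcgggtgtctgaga
Rasd1: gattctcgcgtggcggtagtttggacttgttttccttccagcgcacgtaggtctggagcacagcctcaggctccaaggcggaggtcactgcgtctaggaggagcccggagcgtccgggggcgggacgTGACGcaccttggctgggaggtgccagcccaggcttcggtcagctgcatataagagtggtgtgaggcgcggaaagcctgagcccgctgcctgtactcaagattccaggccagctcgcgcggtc
Sik1 holds 2 cores, and Rgs2 and Rasd1 hold 1 each, whereas no core was found in the promoters of Noct and Pde4b, the other members that passed. The search covered both strands of 250 bases before and 50 after the start, and the core also lies within the full palindromic element TGACGTCA, which none of these 5 genes holds. The core was found in 23.0% of 27456 genes with a promoter in the table and in 33.3% of the 6653 tested genes with one, and the full element in 2.0% and 3.22%. A match describes the letters in this window and is not a measured binding site.

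Relative to untreated cells, diazepam changed 90 of 11364 probes (0.792%) at an adjusted p under 0.05 in limma, a linear model with a spread moderated across probes and a Benjamini-Hochberg adjustment; 43 were higher (0.378%) and 47 lower (0.414%). The changes were small. Their median absolute size was 0.51 on the log2 scale, 3 probes were at least 2-fold lower and none was 2-fold higher. Of the 90 probes, 68 carried a gene symbol, 30 of them higher and 38 lower, among 7958 named genes tested (0.854%), and the other 22 carried none. The values of the 2 groups did not overlap for 78 of the 90, against 254 probes (2.24%) among all those tested. The same arrays chose the 90, so this count is a description. At an unadjusted p under 0.05 there were 1058 probes; of the 7958 named genes, 402 were then higher (5.05%) and 388 lower (4.88%). The 5 probes just inside the threshold had adjusted p from 0.0447 to 0.0498, and the 5 just outside from 0.0516 to 0.055.

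**Figure D1:**
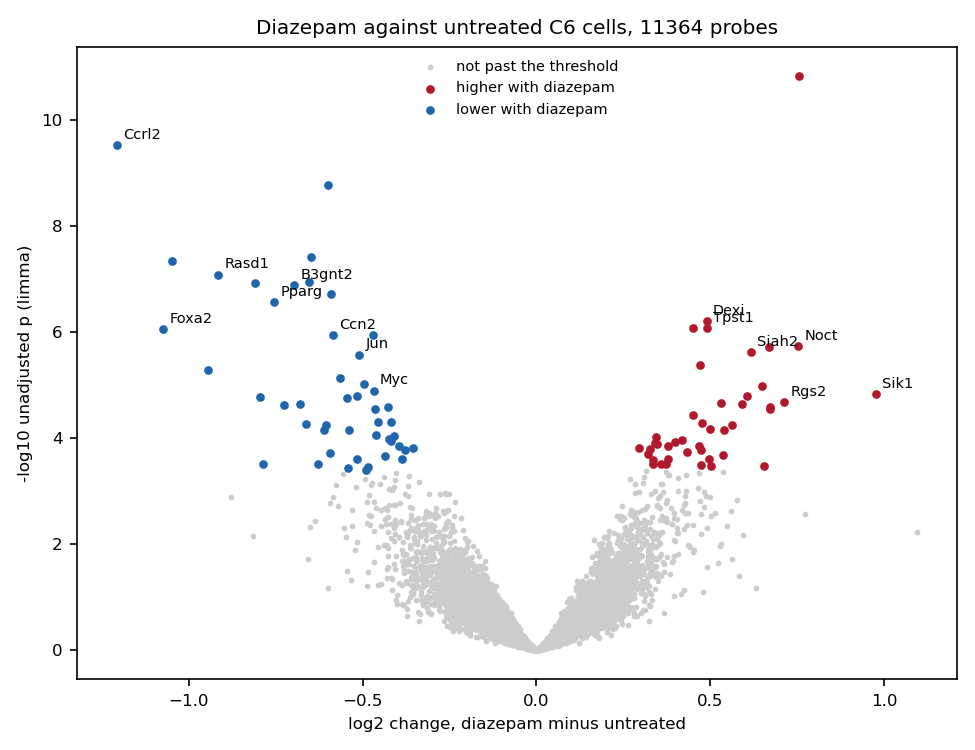
Each point is 1 of 11364 probes, with the log2 change of diazepam minus untreated on the x axis and the -log10 of the unadjusted limma p on the y axis; 43 red points are higher and 47 blue points lower at an adjusted p under 0.05. Ccrl2, Foxa2 and Rasd1 lie farthest left among the labelled genes and Sik1 farthest right.

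Between 9839 and 10452 probes were detected on a diazepam array and between 9997 and 10537 on an untreated one. Diazepam arrays 5 and 6 had the lowest upper quartiles of intensity among the 10, at 166.2 and 170.2, against 213.7 to 273.2 on the others. Arrays numbered 5 and 6 stood apart in both groups: on the first principal component of the 28 arrays these 4 lay between 10.1 and 15.4, and the 6 arrays numbered 1 to 4 between -10.1 and 2.2. Numbers 5 and 6 make up 2 of 4 diazepam arrays but 2 of 6 untreated ones, so values are also given below for numbers 1 to 4 and for 5 and 6 alone. What the numbers stand for is not given in the labels.

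The largest fall was that of Ccrl2, an atypical chemokine receptor that binds chemerin without signalling through G proteins. Its log2 intensity was 7.05, 6.47, 6.65 and 6.39 on diazepam arrays 1, 4, 5 and 6, whereas the 6 untreated arrays ran from 7.68 through a median of 7.81 to 8.13. Every diazepam array lay below every untreated one, and Ccrl2 was 2.31-fold lower (log2 change -1.21 ± 0.13 SE, n = 4 and 6, adjusted p = 1.71e-06). The log2 change was -1.09 on arrays numbered 1 to 4 (adjusted p = 0.0202) and -1.31 on those numbered 5 and 6 (adjusted p = 0.0142). RNA was measured from whole cultures, so fewer cells of a kind and less RNA per cell cannot be told apart. Of 18 measured genes in a list of chemokines, their receptors and inflammation, Ccrl2 alone passed; Ccl2 and Ccl7, chemokines that attract monocytes, had log2 changes of -0.30 and -0.49 (adjusted p = 0.772 and 0.572), and the receptor Cxcr4 0.56 (0.375). The list's median was 0.01, against 0.001 over all genes tested.

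The falls included the transcription factors Foxa2, Pparg and Zfp143. Foxa2, a forkhead factor of endoderm and midbrain development, had log2 intensities of 8.01, 7.75, 7.65 and 7.04 with diazepam and of 8.26 to 9.03 (median 8.76) in untreated cells. No diazepam array reached the untreated range, and the fall was 2.11-fold (log2 change -1.07 ± 0.17 SE, adjusted p = 0.000668). In the list of 14 measured lineage transcription factors Foxa2 was the only member called, and the list's median was -0.03. Pparg, the nuclear receptor that drives fat cell differentiation, had 6.82, 6.47, 6.80 and 6.41 with diazepam and 7.17 to 7.91 (median 7.29) untreated. All 4 diazepam arrays were below all 6 untreated ones (log2 change -0.75 ± 0.11 SE, adjusted p = 0.000285). The other 14 measured members of the Pparg and lipid storage list did not pass: the lipase Lpl had -0.30 (adjusted p = 0.305), the lipid droplet gene Plin2 -0.14 and Angptl4 0.14, and the median was 0.005. Zfp143, a zinc finger activator of housekeeping promoters, had a log2 change of -0.65 ± 0.09 SE (adjusted p = 0.000167).

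Immediate early genes, which are induced within minutes to hours of a stimulus without new protein synthesis, moved in 1 direction where they passed: 4 of 24 measured members were lower and 0 higher, where 0.478% of all named genes were lower and 0.377% higher. Ccn2, a matricellular protein gene and a target of YAP, had log2 intensities of 12.28, 12.59, 12.52 and 12.17 with diazepam, against 12.77 to 13.18 (median 12.99) untreated. The groups did not overlap, and the change was -0.59 ± 0.10 SE (adjusted p = 0.000769). Jun, a subunit of the AP-1 factor, had 9.29, 9.23, 9.27 and 9.20 with diazepam and 9.61 to 9.91 (median 9.75) untreated. It was below the untreated range on all 4 arrays and fell by 0.51 ± 0.09 SE on the log2 scale (adjusted p = 0.00144). Myc, which drives growth and division, had 8.33, 8.53, 8.42 and 8.23 against 8.70 to 8.95 (median 8.87). It likewise lay below the untreated range throughout (log2 change -0.47 ± 0.09 SE, adjusted p = 0.00539). Klf4, a Krüppel-like factor, had a change of -0.60 ± 0.13 SE (adjusted p = 0.0133), with diazepam array 4 at 11.35 inside the untreated range of 11.30 to 12.15. Its adjusted p was 0.0735 without diazepam array 5 and 0.0829 without array 6.

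The other 20 measured immediate early genes did not pass. The list's median was 0.07, 5 members were higher and 4 lower at an unadjusted p under 0.05 (5.05% and 4.88% of all named genes), and Fos had a log2 change of 0.28 (adjusted p = 0.487), Egr1 0.12, Nr4a1 0.09 and Ier2 0.53 (adjusted p = 0.279).

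Among the rises, 4 of 23 measured cAMP and CREB targets were higher and 1 was lower, where 0.377% and 0.478% of all named genes were. Sik1, a salt-inducible kinase that phosphorylates the CREB coactivators and so limits them, was the largest rise of the comparison. It had log2 intensities of 7.72, 8.17, 7.99 and 7.84 with diazepam and of 6.41 to 7.96 (median 6.84) untreated. Untreated array 1 held the 7.96, and the other 5 untreated arrays, at 7.09 or less, lay below all 4 diazepam arrays. Sik1 was 1.97-fold higher (log2 change 0.98 ± 0.19 SE, adjusted p = 0.00597), and 1.18 on the log2 scale without untreated array 1 (adjusted p = 1.65e-05). Its change was 0.88 on arrays numbered 1 to 4 and 1.18 on those numbered 5 and 6, with adjusted p of 0.373 and 0.168.

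Noct, or nocturnin, a circadian NADPH phosphatase, had log2 intensities of 6.92, 6.97, 6.97 and 6.63 with diazepam and 5.89 to 6.54 (median 6.05) untreated. The groups did not overlap (log2 change 0.75 ± 0.13 SE, adjusted p = 0.00115). Rgs2, which speeds up GTP hydrolysis by G protein alpha subunits, chiefly of the Gq class, had 8.34, 8.68, 8.51 and 7.79 against 7.41 to 7.77 (median 7.64). Arrays 1, 4 and 5 stood well clear of the untreated ones and array 6 lay just above them (log2 change 0.71 ± 0.14 SE, adjusted p = 0.00715, and 0.0508 without diazepam array 5). On arrays numbered 1 to 4 Rgs2 changed by 0.93 (adjusted p = 0.0128), and on those numbered 5 and 6 its value was 0.45 (adjusted p = 0.524). Pde4b, a phosphodiesterase that degrades cAMP and is itself induced by cAMP, had 7.91, 7.82, 7.63 and 7.79 against 6.81 to 7.49 (median 7.39). Its groups did not overlap either, but its call was the least firm of the 4: the change was 0.50 ± 0.12 SE (adjusted p = 0.0362) and leaving out single arrays ended the call in 7 of 10 cases, with an adjusted p of up to 0.13 (diazepam 1, 4, 5 and 6, untreated 1, 4 and 5).

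Rasd1, a dexamethasone-inducible Ras-like GTPase that is also counted among cAMP targets, went the other way. It had log2 intensities of 7.16, 7.13, 6.97 and 7.26 with diazepam and 7.82 to 8.52 (median 7.94) untreated. All 4 diazepam arrays were below the untreated range (log2 change -0.92 ± 0.13 SE, 1.89-fold lower, adjusted p = 0.000158), and the change was -0.95 on arrays numbered 1 to 4 and -0.83 on numbers 5 and 6. The list's median was 0.12, and 9 of 23 members were higher and 1 lower at an unadjusted p under 0.05, against 5.05% and 4.88% of all named genes. Members that did not pass included Per1 at 0.43 (adjusted p = 0.102), Cebpb at 0.29, Nr4a2 at 0.29, Crem at 0.26 and Nr4a3 at 0.13. In the list of cAMP machinery, 2 of 20 measured members were higher and 0 lower, both of them phosphodiesterases. These were Pde4b and Pde7a, whose change was 0.47 ± 0.11 SE (adjusted p = 0.028); diazepam array 5 was the highest for Pde7a at 9.34, and without it the change was 0.36 (adjusted p = 0.222). The call for Pde7a was also lost without diazepam array 6 or untreated array 2, 3 or 4. The cyclases Adcy5 and Adcy8 had log2 changes of 0.15 and -0.03, and the kinase A subunits Prkaca and Prkacb -0.01 and -0.12.

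Among genes with a promoter in the table, 15 of 27 genes called higher held the response element's core (55.6%), against 8 of 31 called lower (25.8%) and 33.3% of all tested genes. In the cAMP and CREB target list, 16 of 20 measured members with a promoter held it, and so did 2 of the 4 that rose. These shares are descriptions with no test.

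**Figure D2:**
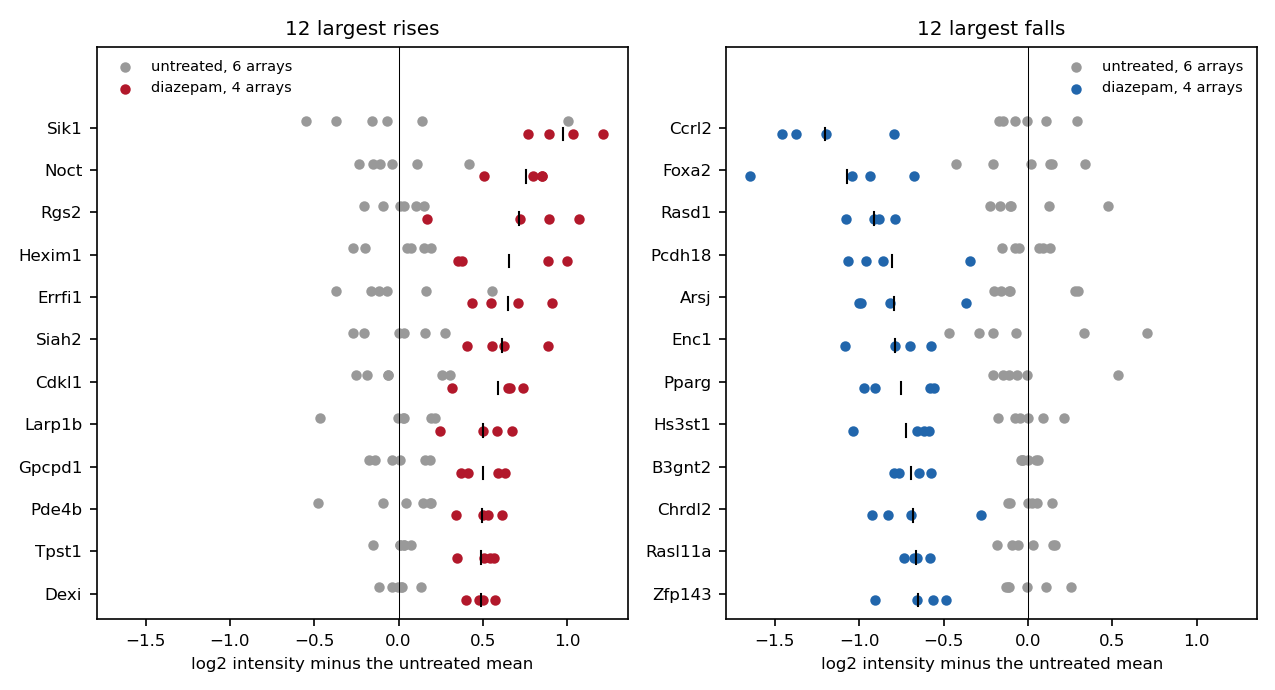
Each point is 1 array's log2 intensity minus the mean of the 6 untreated arrays, for the 12 largest rises (left) and the 12 largest falls (right) under the naming rule; grey points are untreated, coloured points diazepam, and the black bar is the diazepam mean. For Sik1 and Errfi1 an untreated array reaches into the diazepam values, and for Ccrl2, Rasd1 and B3gnt2 the groups are well apart.

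Errfi1, an inhibitor of the epidermal growth factor receptor, had log2 intensities of 7.53, 7.89, 7.69 and 7.42 with diazepam and 6.61 to 7.54 (median 6.90) untreated. Untreated array 1 overlapped the diazepam arrays (log2 change 0.65 ± 0.12 SE, adjusted p = 0.00454, and 0.76 without that array). Errfi1 and Rgs2 were the 2 members higher among 19 measured regulators of receptor kinase and MAP kinase signals, with 0 lower. The median of that list was -0.09, and the Sprouty genes Spry1, Spry2 and Spry4 had -0.35, -0.23 and -0.28 (adjusted p from 0.238 to 0.682). Errfi1 was also the only 1 of 10 measured glucocorticoid targets to pass; Fkbp5 and Tsc22d3, defining targets, had 0.30 and 0.20 (adjusted p = 0.277 and 0.428), and the list's median was 0.17. Noct was the only 1 of 12 measured clock genes to pass, with Per2 at -0.32 (adjusted p = 0.147), Dbp at 0.23 and a list median of 0.05.

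Siah2, a ubiquitin ligase of the hypoxia response, had log2 intensities of 7.69, 7.84, 7.91 and 8.17 with diazepam and 7.02 to 7.56 (median 7.31) untreated. The groups did not overlap (log2 change 0.62 ± 0.11 SE, adjusted p = 0.00138). Hexim1, which holds the elongation factor P-TEFb inactive, changed by 0.65 ± 0.16 SE (adjusted p = 0.0447) and was the only 1 of 13 measured genes of that complex to pass. Its call rested on nearly all the arrays: it was kept without diazepam array 1 or 6 and lost without any of the other 8, with an adjusted p of up to 0.219. Tpst1, which sulfates tyrosines of secreted proteins, had log2 intensities of 9.26, 9.32, 9.10 and 9.29 with diazepam and 8.60 to 8.82 (median 8.77) untreated. The groups did not overlap, and its change was 0.49 ± 0.08 SE (adjusted p = 0.000668). Dexi, a dexamethasone-induced transcript, changed by 0.49 ± 0.08 SE (adjusted p = 0.000586) and Gpcpd1, a glycerophosphocholine phosphodiesterase, by 0.50 ± 0.11 SE (adjusted p = 0.0156, but 0.0591 without diazepam array 4 and 0.0867 without array 5). Cdkl1, a cyclin-dependent kinase-like gene, changed by 0.59 ± 0.12 SE, a size that is inexact because 2 of 6 untreated arrays detected it. Larp1b, a La-related RNA-binding protein, changed by 0.50 ± 0.12 SE (adjusted p = 0.0447), and lost its call without diazepam array 4, 5 or 6 or untreated array 2, 3, 4 or 5, with an adjusted p of up to 0.218.

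B3gnt2, which extends N-acetyllactosamine chains, had log2 intensities of 9.04, 8.85, 8.97 and 8.82 with diazepam and 9.58 to 9.68 (median 9.60) untreated. The untreated arrays lay close together and all 4 diazepam arrays lay below them (log2 change -0.70 ± 0.10 SE, adjusted p = 0.000167). Hs3st1, a heparan sulfate sulfotransferase, changed by -0.72 ± 0.14 SE (adjusted p = 0.0074, and 0.0666 without diazepam array 5). Arsj, an arylsulfatase, changed by -0.79 ± 0.15 SE (adjusted p = 0.00615), and the protocadherin Pcdh18 by -0.81 ± 0.12 SE (adjusted p = 0.000167). Pcdh18 had 6.93, 7.44, 6.72 and 6.83 with diazepam and 7.63 to 7.92 (median 7.80) untreated, so array 4 came nearest to the untreated range without entering it.

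Low signals limit 3 more falls. Rasl11a, a Ras-like GTPase, was detected on 6 of 6 untreated and 0 of 4 diazepam arrays and was at least 1.37-fold lower, measured against the lowest signal that counted as detected on each array (adjusted p = 0.0133, and 0.0508 without diazepam array 5). Enc1, an actin-binding protein, was detected on 2 of 4 diazepam arrays and had a log2 change of -0.79 ± 0.19 SE (adjusted p = 0.0422). It lost its call without diazepam array 4, 5 or 6 or untreated array 1, 2, 3 or 4, with an adjusted p of up to 0.254. Chrdl2, a secreted antagonist of bone morphogenetic proteins (BMPs), was also detected on 2 of 4 and changed by -0.68 ± 0.14 SE (adjusted p = 0.00734, 0.0593 without diazepam array 5 and 0.0521 without array 6).

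The receptors that diazepam is named for gave little signal. Of 14 benzodiazepine target genes with a probe, 10 were detected on 0 of the 10 arrays, namely Gabra3, Gabra4, Gabra5, Gabra6, Gabrb1, Gabrg1, Gabrg3, Gabrd, Gabre and Gabrq. Gabrb2 was detected on 1 and Gabrp on 8 of the 10 arrays. Tspo and Dbi, in contrast, were bright on all 10. Tspo had log2 intensities of 12.87, 12.82, 12.85 and 12.74 with diazepam and 12.62 to 13.01 (median 12.86) untreated, and Dbi 14.61, 14.66, 14.54 and 14.54 against 14.52 to 14.67 (median 14.61). Both genes' groups overlapped. The log2 change was -0.02 for Tspo (95% interval from -0.19 to 0.14) and -0.02 for Dbi (-0.16 to 0.12). In limma none of the 4 measured targets was called, 0 passed at an unadjusted p under 0.05, and the lowest adjusted p was 0.919.

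In the integrated stress response, which slows translation and induces Atf4 targets, 0 of 21 measured members passed in limma, while 9 were higher and 0 lower at an unadjusted p under 0.05 (5.05% and 4.88% of all named genes). The list's median was 0.21, against 0.001 over all genes. Trib3, a pseudokinase induced by Atf4, had log2 intensities of 7.02, 6.41, 6.12 and 5.97 with diazepam and 5.67 to 5.91 (median 5.77) untreated. All 4 diazepam arrays lay above the untreated range and array 1 was the highest (log2 change 0.60 ± 0.20 SE, adjusted p = 0.226). Chac1, a glutathione-degrading enzyme, had 6.10, 5.68, 5.72 and 5.93 against 5.18 to 5.40 (median 5.32). Its groups did not overlap (log2 change 0.55 ± 0.18 SE, adjusted p = 0.194). Slc7a5 and Ddit4 had log2 changes of 0.49 and 0.50 (adjusted p = 0.102 and 0.161), and Atf4 itself 0.26.

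Endoplasmic reticulum chaperones gave 0 calls of 17, with 3 higher at an unadjusted p under 0.05 and Hspa5 at 0.29 (adjusted p = 0.376). Of 11 heat shock genes Dnajb1, a co-chaperone of Hsp70, was higher (log2 change 0.33 ± 0.08 SE, adjusted p = 0.0278), and the list's median was -0.03; that call was lost without diazepam array 4, 5 or 6 or untreated array 2, 3 or 5, with an adjusted p of up to 0.131. Oxidative stress genes under Nrf2 gave 0 calls of 15 and 1 lower at an unadjusted p under 0.05, the haem-degrading Hmox1 at -0.26 (adjusted p = 0.496).

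No member of the lists for cholesterol synthesis (14 measured), fatty acid synthesis (12), BMP targets (16), growth factors (11), hypoxia and glycolysis (18), p53 targets (9), the Bcl2 family (8), the cell cycle (24), xenobiotic response (8), cytosolic ribosomal proteins (29) or oxidative phosphorylation (27) passed in limma. At an unadjusted p under 0.05, which 5.05% of all named genes reached on the higher and 4.88% on the lower side, cholesterol synthesis had 3 higher and 0 lower, BMP targets 3 and 2, growth factors 1 and 0, hypoxia 0 and 1, p53 targets 1 and 3, the Bcl2 family 0 and 2, the cell cycle 0 and 2, xenobiotic response 1 and 1 and ribosomal proteins 0 and 1; the lists for fatty acid synthesis and oxidative phosphorylation had none. The medians of these 11 lists lay between -0.15 and 0.14. The p53 target Aen, an exonuclease, came nearest to the threshold, with a log2 change of -0.44 ± 0.11 SE (adjusted p = 0.0596).

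Markers of other cell types were examined in the same way. Nefl, the light neurofilament, was the only marker called: it fell by 0.41 ± 0.09 SE on the log2 scale (adjusted p = 0.0196), with diazepam array 6 lowest at 9.56, and without that array its change was -0.29 (adjusted p = 0.199). The summed normalised intensity of the 8 measured neuron markers ran from 1380 to 1770 with diazepam and from 1910 to 2160 untreated, and Syp, Snap25 and Slc17a7 were detected on 0 arrays. The sum is of linear intensities and includes Nefl, whose mean log2 intensity was 9.93 with diazepam and 10.34 untreated. Across the 8 neuron markers the median log2 change was -0.08, with 1 called lower and 0 higher. The 8 measured astrocyte markers summed to 24300 to 26200 with diazepam and 25700 to 27800 untreated, ranges that overlapped, with 0 called. The sums overlapped for oligodendrocyte markers (7 measured, 8280 to 9820 against 7320 to 9290, with Mog, Mag and Cldn11 not detected), microglia markers (3 measured, 112 to 129 against 108 to 125, with Aif1, Ptprc, Tyrobp, C1qa and C1qb not detected) and endothelium markers (3 measured, 146 to 162 against 149 to 166, with Cdh5, Tek, Vwf and Emcn not detected). The part of these markers in the other changes was not tested.

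**Figure D3:**
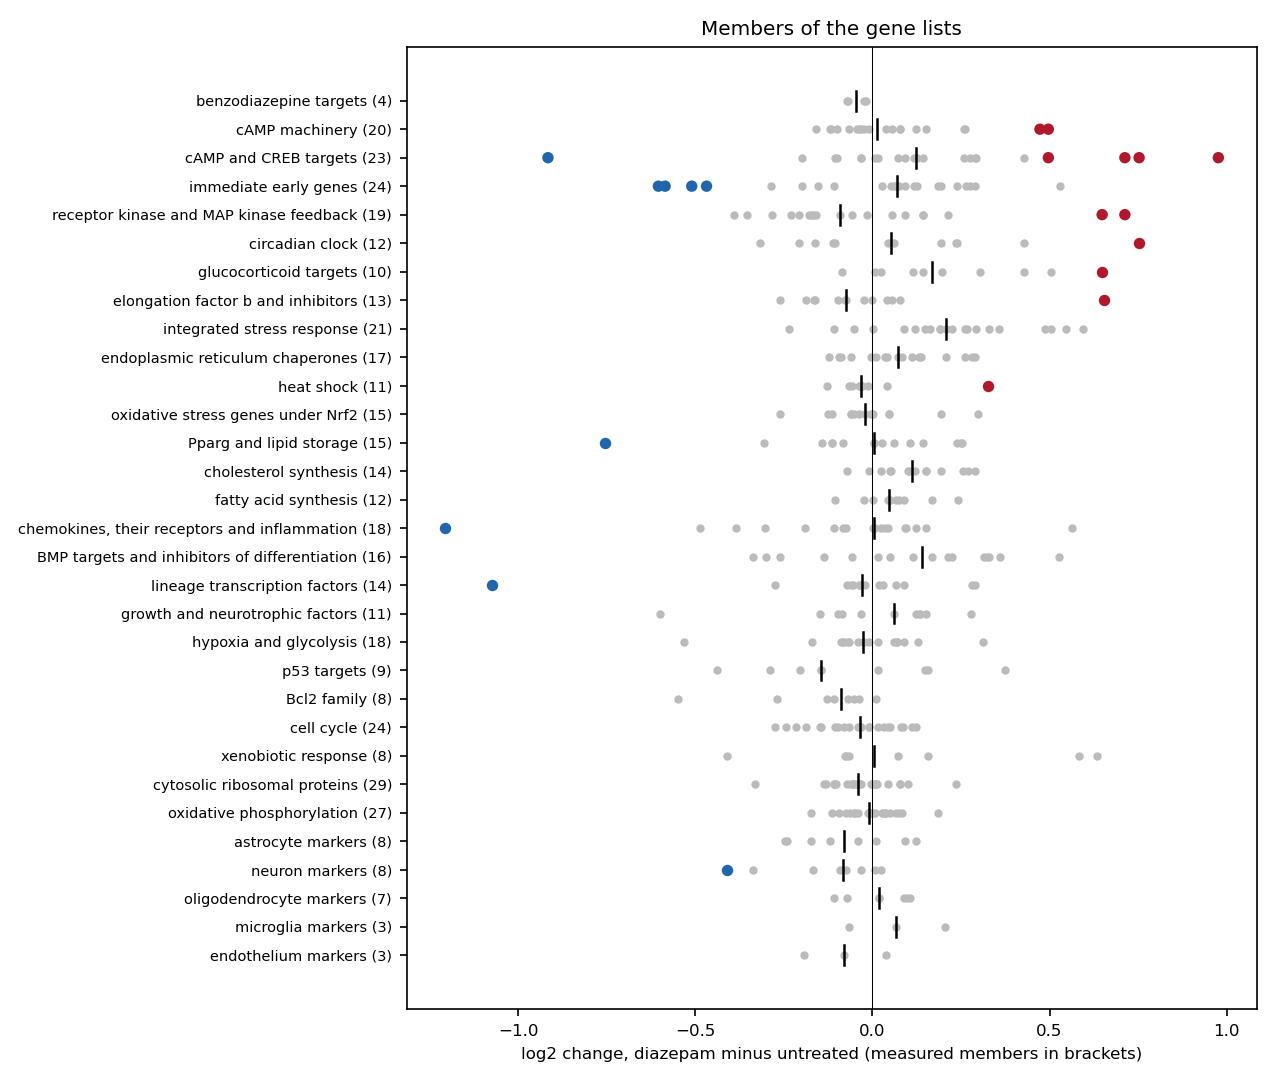
Each point is 1 measured gene of a list, placed at its log2 change of diazepam minus untreated; coloured points passed an adjusted p of 0.05, red higher and blue lower, and the black bar is the list's median. The cAMP and CREB target list holds 4 red points and 1 blue, and the immediate early list 4 blue points.

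Diazepam was next set against each other drug, at the same dose and time, to see which of its changes differed from theirs. Desipramine is a tricyclic antidepressant, fluoxetine a selective serotonin reuptake inhibitor and haloperidol an antipsychotic that blocks dopamine receptors. Directly against diazepam, 919 probes differed for desipramine (8.09%), 543 for fluoxetine (4.78%) and 261 for haloperidol (2.3%). Of the 90 probes called against untreated cells, 43 also passed with the same sign under another drug. There were 37 with haloperidol, 18 with fluoxetine and 12 with desipramine, and 0, 6 and 6 passed with the opposite sign. Over all 11364 probes, 424, 426 and 635 passed for these drugs against untreated cells. In the direction of their change, 26 of the 90 differed from haloperidol, 59 from fluoxetine and 66 from desipramine. A set of 23 probes (0.202%) differed from untreated cells and from each of the 3 drugs with the same sign, 8 higher and 15 lower, and 19 of them carried a symbol. The 4 contrasts share the diazepam arrays, and the changes against untreated cells quoted for each drug share the 6 untreated arrays, so these values stand side by side and are not independent of each other.

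Ccn2 and Myc were lower with diazepam than in any other group. For Ccn2 the log2 change against untreated cells was -0.59 with diazepam, 0.62 with desipramine, 1.33 with fluoxetine and 0.14 with haloperidol, and the differences from the 3 drugs had adjusted p of 9.25e-10, 1.68e-14 and 4.4e-05. For Myc the changes were -0.47, 0.73, 0.74 and 0.02 in the same order, with adjusted p of 6.15e-10, 1.48e-10 and 0.00166. Jun and Klf4 were not in that set: Jun did not differ detectably from desipramine or haloperidol (adjusted p = 0.151 and 0.552), nor Klf4 from haloperidol (0.172).

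Pparg, Arsj, Pcdh18, B3gnt2, Zfp143 and Rasl11a also lay below all 4 other groups. Pparg had 0.30 with desipramine, 0.08 with fluoxetine and -0.21 with haloperidol, and its differences from them were -1.05, -0.84 and -0.55 (adjusted p of at most 0.00589). Arsj had 0.30, 0.63 and 0.00, with differences of -1.09, -1.43 and -0.80 (adjusted p of at most 0.00324). Zfp143 had 0.01, -0.09 and -0.09, with differences of -0.67, -0.57 and -0.56 (adjusted p of at most 0.000682). Ccrl2 was lower with diazepam than with each drug as well, but fluoxetine and haloperidol had changes of -0.66 and -0.73 of their own, and the smallest difference, that from haloperidol, was -0.48 ± 0.13 SE (adjusted p = 0.043).

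On the side of the rises, Tpst1 had -0.09 with desipramine, -0.10 with fluoxetine and -0.03 with haloperidol and differed from each (adjusted p of at most 0.000211). Rgs2 had -0.49 with desipramine, 0.22 with fluoxetine and 0.06 with haloperidol, and differed from each (adjusted p = 1.46e-06, 0.0347 and 0.00869). Ccdc134, a secreted coiled-coil protein gene, changed by 0.47 ± 0.11 SE and H2ax, the histone variant marked at DNA breaks, by 0.30 ± 0.07 SE (adjusted p = 0.0252 and 0.0269), and both exceeded their levels under all 3 drugs. Ccdc134 lost its call against untreated cells without diazepam array 4, 5 or 6 or untreated array 5 (adjusted p of up to 0.106). H2ax lost it without any of diazepam arrays 1, 5 and 6 and untreated arrays 1 to 4 (up to 0.0936).

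For other genes at least 1 difference from a drug did not pass. Noct had log2 changes of 0.82 with desipramine, 0.72 with fluoxetine and 0.93 with haloperidol against 0.75 with diazepam, and no difference passed (adjusted p of 0.574 to 0.943). Siah2 was lower with diazepam than with fluoxetine or haloperidol, by 0.56 and 0.54 on the log2 scale (adjusted p = 0.000822 and 0.00324). Sik1 differed from fluoxetine by 1.38 ± 0.19 SE and from haloperidol by 0.93 ± 0.19 SE (adjusted p = 1.02e-05 and 0.00425), while its difference from desipramine, 0.47 ± 0.19 SE, did not pass (adjusted p = 0.129). Pde4b differed from fluoxetine and haloperidol by 0.44 and 0.81 (adjusted p = 0.0279 and 0.000148) but not detectably from desipramine (adjusted p = 0.0735). Hexim1 differed from desipramine and fluoxetine by 0.99 and 1.09 (adjusted p = 0.000125 and 3.64e-05) but not detectably from haloperidol (adjusted p = 0.565). Rasd1 was higher with diazepam than with fluoxetine by 0.45 ± 0.13 SE (adjusted p = 0.0392), since its change with fluoxetine was -1.36. Against untreated cells Rasd1 also changed by -0.40 with desipramine and -0.56 with haloperidol (adjusted p = 0.0373 and 0.00374). Foxa2 differed from desipramine by -1.30 and from fluoxetine by -0.64 (adjusted p = 9.07e-06 and 0.0252), and its difference from haloperidol was -0.38 ± 0.17 SE (adjusted p = 0.285). Haloperidol itself lowered Foxa2 against untreated cells (log2 change -0.69, adjusted p = 0.00729).

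**Figure D4:**
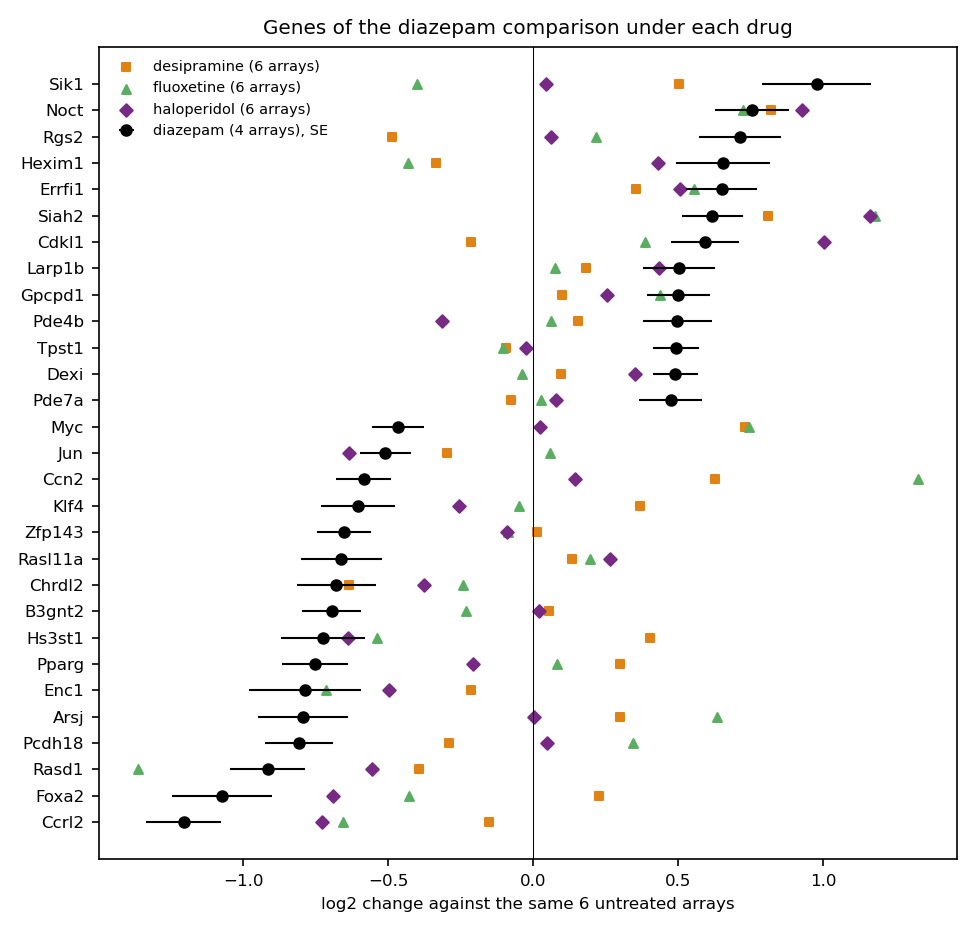
Each row is a gene and the x axis its log2 change against the same 6 untreated arrays; black points with SE bars are diazepam (4 arrays) and coloured symbols the means of desipramine, fluoxetine and haloperidol (6 arrays each). Ccn2 and Myc lie left of 0 with diazepam and right of it with desipramine and fluoxetine, while the 4 symbols of Noct lie close together.

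The count of changed probes depended on which arrays entered. With the untreated arrays that share the diazepam numbers (1, 4, 5 and 6) alone, 10 probes passed, 2 higher and 8 lower, and all 10 were among the 90. At an unadjusted p under 0.05, 691 passed. That fit also leaves out the other drugs' arrays, so the spread rests on 6 residual degrees of freedom in place of 23. With all 10 diazepam and untreated arrays and no other drug, 48 probes passed (8 residual degrees of freedom). The 10 probes of the same-numbered fit included Ccrl2 (log2 change -1.27, adjusted p = 0.015), B3gnt2 (-0.71, 0.02) and Rasd1 (-0.94, 0.0337). Rasl11a and Cdkl1, which few arrays of their lower group detected, were also among these 10 (adjusted p = 0.0399 and 0.0345). In the same-numbered fit Sik1, Noct, Foxa2 and Pparg had changes of 0.80, 0.75, -0.95 and -0.80 without passing (adjusted p = 0.444, 0.112, 0.117 and 0.129). Array by array, 84 of the 90 probes, 39 higher and 45 lower, moved the same way in all 4 same-numbered differences, against 16.1% of all probes with 4 such differences of 1 sign; the same arrays chose the 90, so this is a description.

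When limma was run on arrays numbered 1 to 4, 17 probes passed (590 at an unadjusted p under 0.05), and on arrays numbered 5 and 6 it was 2 (1211 unadjusted). Each of these fits holds 2 diazepam arrays, with 13 and 5 residual degrees of freedom. All 17 called in the first had the same direction in the second, which holds other arrays. Both of the 2 had the same direction in the first. The share of all probes whose direction agrees between these fits was not computed, and all arrays were normalized together, so these counts are a description. Leaving out diazepam arrays 5 and 6, a setting chosen after seeing the data, left 19 probes. Leaving out diazepam array 5 or array 6 left 47 in each case, and leaving out any other single array left 62 to 97. All 90 kept their direction in each of these subsets, but the subsets are drawn from the arrays that chose the 90, so this too is a description.

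**Figure D5:**
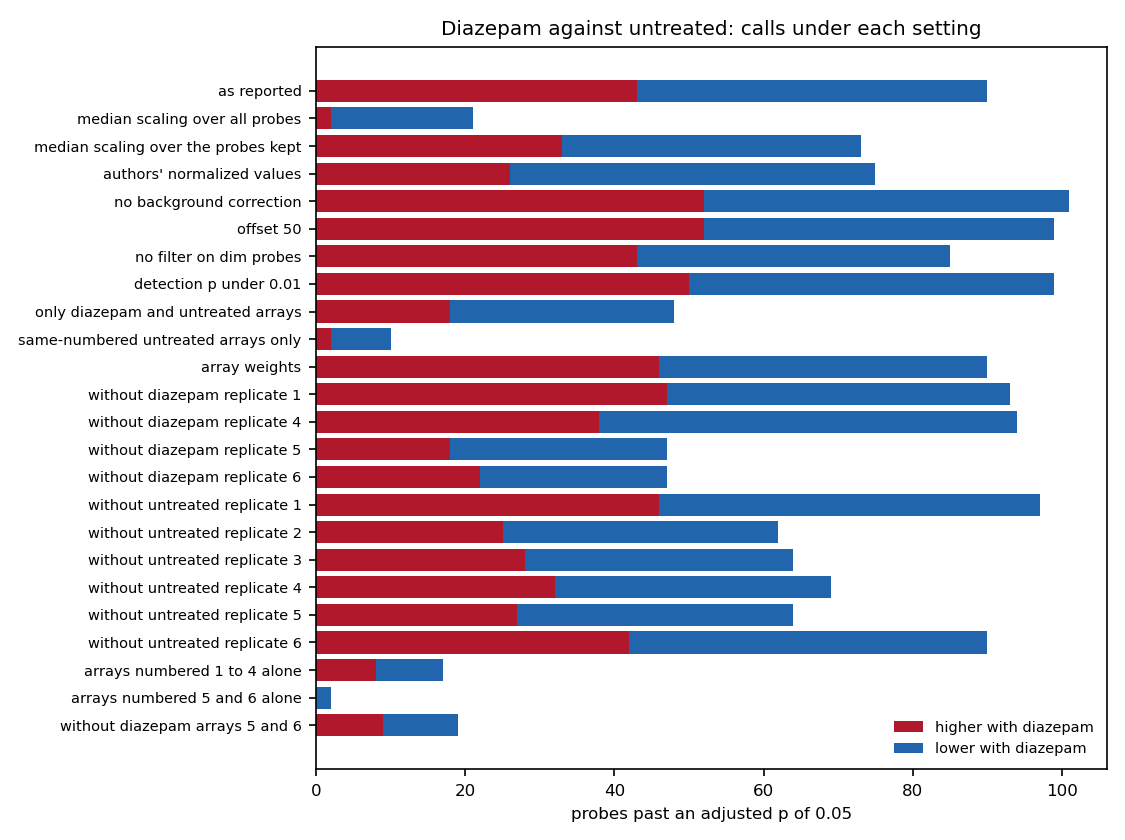
Bars count the probes past an adjusted p of 0.05 between diazepam and untreated cells, red higher and blue lower, as reported (90) and under each alternative scaling, filter, weighting or choice of arrays without a replicate block. The shortest of these bars are those for arrays numbered 5 and 6 alone (2) and for the same-numbered untreated arrays (10).

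Scaling the arrays by their medians over all probes in place of quantile normalization moved the median log2 change of all probes to -0.115, and 21 probes passed, 2 higher and 19 lower (9.52% higher, against 47.8% as reported). With the authors' normalized values 75 passed, 26 higher and 49 lower (34.7% higher), 71 of them among the 90. Under the median scaling Sik1, Noct and Rgs2 had log2 changes of 0.81, 0.63 and 0.56 without passing (adjusted p = 0.198, 0.19 and 0.378), whereas Ccrl2, Foxa2, Rasd1 and Pparg passed at -1.33, -1.23, -1.06 and -0.88. With medians taken over the 11364 probes kept, a scaling chosen after seeing the data, the median change was 0.03, 73 probes passed (33 higher and 40 lower), and Sik1, Noct and Rgs2 passed again at 0.95, 0.77 and 0.70. Across all 26 alternatives Ccrl2 passed in every one and Rasd1 in 25, the exception being arrays numbered 5 and 6 alone.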

How the data were processed

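Biotin-labelled RNA of 28 C6 cultures was read on Illumina rat bead arrays with GenomeStudio 1.9.0, per the submitters' processing notes. The authors deposited a non-normalized table with a linear intensity for each of 22523 probes on each array; whether background had been subtracted is not given in the sources used here. Beside each intensity the authors deposited a detection p-value, in steps of 1 in 825. The authors also deposited normalized intensity values, whose method is not given in the sources used here, and these served only as an alternative. The number of arrays limits the precision. Columns of 2 arrays (4 columns) without a sample in the series were not used.

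Intensities were background-corrected and quantile-normalized with neqc (limma 3.58.1, R 4.3.3; negative controls inferred from the detection p, offset 16), which gives log2 intensities and pulls changes of dim probes toward 0. A probe was kept if 4 or more arrays gave it a detection p under 0.05, as 11364 did. All 28 arrays were fitted in limma with 1 mean for each of 5 groups, so the spread is shared; diazepam was contrasted with untreated cells and with each other drug. Two-sided p-values were adjusted over these 11364 probes (Benjamini-Hochberg; threshold 0.05), and errors are SE from the fit. On simulated data with 200 changed probes among 11364, the diazepam contrast recovered 63% of changes of 0.5 and 98% of changes of 1 on the log2 scale. The simulated noise was normal and independent for each probe and array. It held no effect of the replicate number, no outlying array and no normalization step, so these rates do not cover such spread.

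Symbols came from the platform annotation: 13793 probes had 1, none had several and 8730 had none. Each of 7958 genes was counted in lists through its brightest probe. Named were the 12 largest rises and falls past the threshold (every array of the higher group had to detect the gene and exceed the other group's mean), the 6 largest changes each way in the set apart from every drug, and, for each of 31 gene lists, up to 4 members that passed or else the 2 largest changes, with every measured benzodiazepine target; other genes were named after their values were seen. The comparison and the lists were chosen with earlier results of these data known. Lists are described by counts and medians with no set test. Promoters came from a RefSeq table of build GRCr8; the probes carry no genome position here. Other scalings, filters, blocks and subsets of arrays were tried as alternatives.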

Additional observations from a re-analysis of the deposited data

Results flagged for a closer look

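For the 73 named genes, each group was searched for a single array standing apart from the rest, judged by the gap to the nearest array over the group's whole range; chance gives this in about 1 in 20 groups, and 18 of 146 showed it. Of these, 8 were in the diazepam group and 10 in the untreated group, and 8 of the 10 were untreated array 1.

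Untreated array 1 was the highest of 6 in log2 intensity for Cyp1a1 (7.18, next 5.4) and Cyp1b1 (10.9, next 9.81), cytochrome P450 genes induced through the aryl hydrocarbon receptor, for the quinone reductase Nqo1 (13.7, next 13), for Pparg (7.91, next 7.37) and for Nefl (10.5, next 10.3). It was the lowest for the hexokinase Hk2 (6.19, next 7.28), the ATP synthase subunit Atp5mc1 (11.9, next 12.3) and the receptor subunit Gabrp (5.17, next 5.41). Without it the log2 change with diazepam was 0.98 for Cyp1a1 (adjusted p = 0.0638) and 0.80 for Cyp1b1 (adjusted p = 0.129), against 0.63 and 0.58 with it (0.584 and 0.493). The sizes for Cyp1a1 are inexact, since 2 of 6 untreated arrays detected it. Pparg changed by -0.65 without it (adjusted p = 0.000183). Without it 97 probes passed, 74 of them among the 90. Among the other untreated arrays, array 2 was low for Larp1b (5.88, next 6.35), whose call was lost without it (adjusted p = 0.118), and array 5 for Tpst1 (8.6, next 8.76), whose call was kept (0.00274).

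In the diazepam group, array 6 was low for Noct (6.63, next 6.92), Nefl (9.56, next 10) and the receptor Flt1 (4.97, next 5.26). Array 5 was low for Hs3st1 (8.26, next 8.64) and high for Bcl2l2 (8.49, next 8.38). Array 4 was high for Klf4 (11.3, next 10.9) and Hk2 (7.77, next 7.49), and array 1 low for the homeobox gene Msx1 (5.92, next 6.33). Without the array in question Noct still passed (adjusted p = 0.00135), as did Klf4 (0.00498), and Nefl and Hs3st1 did not (0.199 and 0.0666).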

How the results depend on the processing

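The 90 probes kept their direction in all alternatives, 89 of 89 where a detection p under 0.01 removed 1 of them. The alternatives use the arrays that chose the 90, so the kept directions are a description and no independent check. Counts stayed between 73 and 101 with medians scaled over the probes kept (added after seeing the data; set apart from every drug, 18), the authors' values, no background correction, an offset of 50, no filter, the stricter detection p and array weights. Against untreated cells 21 passed with medians scaled over all probes (set apart from every drug, 4), 48 with only the 10 arrays, 10 with the same-numbered untreated arrays and no block, 17 with arrays numbered 1 to 4 (set, 3), 2 with those numbered 5 and 6 (set, 0) and 19 without diazepam arrays 5 and 6 (added after seeing the data; set, 4). Leaving out single arrays gave 47 to 97, and 14 to 29 for the set, the lowest without diazepam array 5 (47 and 14) or 6 (47 and 15). The median scaling uses all 28 arrays; the causes of these shifts were not tested.

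In each of the 5 groups numbers 5 and 6 lay above all others on the first principal component of the 28 arrays. Number 1 lay between -15.8 and -5.35 there, and number 6 between 10.1 and 15.3. Deviations from the group means of same-numbered diazepam and untreated arrays correlated at 0.0627, 0.0358, 0.361 and 0.194 for numbers 1, 4, 5 and 6. Of these diazepam arrays, 2 of 4 correlated best with their own number. The reported fit has no block for the number. With the replicate number as a block 172 probes passed, 87 of them among the 90 (set, 49). With a random replicate block, whose correlation was 0.228, 189 passed (set, 51). The same-numbered arrays with the block gave 6.

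Of 33 named genes past the threshold, 600 of 858 gene and setting combinations kept the call, and 258 kept only the direction; 9 of 1034 combinations brought 1 of the other 40 past it. Depth has no count on these arrays: signal over background limits Rasl11a, Ptprr, Enc1, Chrdl2, Cdkl1, Cyp1a1 and the receptor subunits.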

Other observations

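Some changes fell outside the naming rule and were picked out after their values were seen. Rgs3, like Rgs2 a regulator of G protein signalling, went down where Rgs2 went up: its log2 intensity was 10.27, 10.09, 10.28 and 10.14 on diazepam arrays 1, 4, 5 and 6 and between 10.73 and 10.85 on the 6 untreated arrays, a change of -0.60 ± 0.07 SE (limma adjusted p = 6.53e-06). It was also lower than with desipramine, fluoxetine and haloperidol (adjusted p = 2.17e-06, 2.65e-05 and 0.0312). Ptprr, a phosphatase of MAP kinases, was lower by the same 4 contrasts (adjusted p = 0.0129 against untreated cells). It was detected on 6 of 6 untreated and 0 of 4 diazepam arrays, so it was at least 1.25-fold lower, measured against the lowest detected signal. Nedd9 and Crk, a scaffold and an adaptor of integrin signalling, changed by -0.54 and -0.46 (adjusted p = 0.0156 and 0.0186), the pseudokinase Trib2 by -0.57 (0.00353) and Prkaa1, a catalytic subunit of AMP-activated kinase, by -0.38 (0.028).

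The smallest p of the whole comparison belonged to a probe with no symbol, ILMN_1354345. Its log2 intensity was 7.30, 7.48, 7.36 and 7.43 with diazepam and at most 6.73 untreated (change 0.76 ± 0.07 SE, adjusted p = 1.69e-07), and it exceeded its level under each other drug (adjusted p of at most 0.00887). A further unnamed probe, ILMN_1366573, changed by -1.05 ± 0.14 SE (adjusted p = 0.000104) and was the third probe at least 2-fold lower beside those of Ccrl2 and Foxa2.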
